A study of Homo sapiens with 18 samples.

Results

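A set of 7 genes for enzymes that reshape metabolism in inflamed myeloid cells was followed through a TRAFD1 knockdown experiment: ACOD1, IDO1, KYNU, GCH1, NAMPT, ARG2 and CH25H. The members were the rows of the gene count table whose Ensembl identifier maps to these symbols, and all 7 were among its 63677 rows. KYNU, GCH1, NAMPT, ARG2 and ACOD1 passed the filter on low counts and were among the 16678 genes tested. IDO1, with 12 counts in all 18 libraries together, and CH25H, with 26, did not pass it and are given as counts.

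RNA was measured in THP-1, a line derived from a human monocytic leukaemia. The KD condition was transfected with an siRNA against TRAFD1 at 25 nM, the SCR condition with a scrambled siRNA that has no intended target, and the WT condition received no siRNA. After 72 h the cells were given LPS, a component of the outer membrane of Gram-negative bacteria, at 10 ng/ml for 4 h, or medium alone (unstimulated). Each of the 6 groups held 3 libraries, numbered 1, 2 and 3 in unstimulated cells and 4, 5 and 6 with LPS. The labels call WT untreated in one place and treated with the transfection reagent alone in another, so the reagent and the siRNA cannot be told apart in a difference between SCR and WT. Only 1 siRNA against TRAFD1 was used, in 1 cell line, and the labels do not say whether replicates were separate cultures, so p-values measure the spread between these libraries, which may be technical.

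These enzymes turn common metabolites into signals. ACOD1 makes itaconate from cis-aconitate of the citric acid cycle. IDO1 takes the first step of tryptophan breakdown along the kynurenine pathway, and KYNU, kynureninase, cleaves kynurenine and 3-hydroxykynurenine further down that pathway. GCH1 takes the first, rate-limiting step of tetrahydrobiopterin synthesis, and NAMPT that of NAD salvage from nicotinamide. ARG2 is the mitochondrial arginase, which splits arginine into ornithine and urea, and CH25H makes the antiviral oxysterol 25-hydroxycholesterol. Activated monocytes and macrophages are known to express most of these genes at higher levels after LPS or interferon.

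The libraries were 3-prime tag libraries of 8206023 to 22344279 counts. CPM are counts per 1000000 counts of a library after TMM scaling. A floor of 3 counts, which a count of 0 allows, lay between 0.133 and 0.378 CPM per library and covers counting error only. TRAFD1 stood at 20.1 to 26.8 CPM in unstimulated SCR and 5.37 to 11.6 CPM in unstimulated KD, and at 18.7 to 27.5 CPM in SCR and 13.8 to 15.8 CPM in KD with LPS. Every LPS library lay above every unstimulated one for IL1B, with 1.01 to 3.31 and 19.4 to 56.6 CPM, and for TNF, with 12.7 to 49.6 and 103 to 157 CPM. Of 10 monocytic markers, 8 were at 8 CPM or more in every library, whereas CEBPA was at or near 0 and MPO at 0.156 to 2.36 CPM. Of 13 markers of other cell types, 9 were at 0 in the median library and none exceeded 3.16 CPM, the highest being the epithelial keratin gene KRT8.

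Promoter sequences are shown for the 3 genes that rose with LPS and have an entry in the RefSeq promoter table (GRCh38.p14), because 2 of these start regions are AT-rich and the other is GC-rich. IDO1 and GCH1 have no entry in that table. Each run is the 250 bases before the annotated start, 5′ to 3′ on the gene's strand, and capitals mark matches to a searched motif.
ACOD1 chr13:76948261-76948510 (plus): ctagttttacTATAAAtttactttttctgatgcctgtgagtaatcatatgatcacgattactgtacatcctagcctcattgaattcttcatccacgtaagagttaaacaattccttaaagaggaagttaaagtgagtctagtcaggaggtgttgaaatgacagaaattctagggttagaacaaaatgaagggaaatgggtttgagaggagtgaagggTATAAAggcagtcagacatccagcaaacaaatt
KYNU chr2:142877414-142877663 (plus): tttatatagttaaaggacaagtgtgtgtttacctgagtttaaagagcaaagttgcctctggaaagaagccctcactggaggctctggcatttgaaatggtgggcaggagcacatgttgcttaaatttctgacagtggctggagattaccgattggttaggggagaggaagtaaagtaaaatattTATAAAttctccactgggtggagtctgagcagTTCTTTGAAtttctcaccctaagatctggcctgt
NAMPT chr7:106284984-106285233 (minus): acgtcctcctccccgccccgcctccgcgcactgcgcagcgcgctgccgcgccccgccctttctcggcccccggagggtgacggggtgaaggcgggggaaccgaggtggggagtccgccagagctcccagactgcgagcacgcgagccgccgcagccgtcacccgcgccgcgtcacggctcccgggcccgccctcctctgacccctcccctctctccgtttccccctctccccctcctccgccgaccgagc

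GC content of these windows was 36.4% for ACOD1, 42.4% for KYNU and 77.2% for NAMPT. The motifs searched in the 300 bases around each start (250 before, 50 after) were TATAAA on the gene's strand and, on both strands, TTCNNNGAA (gamma-activated site), TGANTCA (AP-1), the interferon response element (GAAA, 2 bases of any kind, GAAA) and NF-kB strings (GGGAA, 3 bases of any kind and CC, or GGG, 3 bases of any kind and TTCC, counted together). ACOD1 held TATAAA at positions -240 to -235 and -33 to -28, where -1 is the base before the start. KYNU held TATAAA at -66 to -61 and TTCNNNGAA at -34 to -26 and, past the printed run, at 6 to 14. NAMPT, ARG2 and CH25H held no match to any of the motifs. Of all 27305 promoters in the table, 7.706% held TATAAA, 7.881% TTCNNNGAA, 3.648% the interferon response element, 7.764% TGANTCA and 10.81% an NF-kB string. A match to letters is a description of the sequence only.

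The genes lie on 6 chromosomes. On GRCh37 with the GENCODE annotation they are ACOD1 (ENSG00000102794, chr13:77522646-77532773, plus strand), IDO1 (ENSG00000131203, chr8:39759794-39786309, plus), KYNU (ENSG00000115919, chr2:143635226-143813402, plus) and GCH1 (ENSG00000131979, chr14:55308726-55369544, minus). The others are NAMPT (ENSG00000105835, chr7:105888744-105926412, minus), ARG2 (ENSG00000081181, chr14:68086637-68118425, plus) and CH25H (ENSG00000138135, chr10:90965386-90967074, minus), which has a single exon. The last 500 bases of ARG2 overlap VTI1B and those of IDO1 overlap the lncRNA ENSG00000253939, both on the opposite strand. Whether strand was used in counting is not given in the sources used here, so that the reads of these pairs cannot be told apart.

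**Figure D1:**
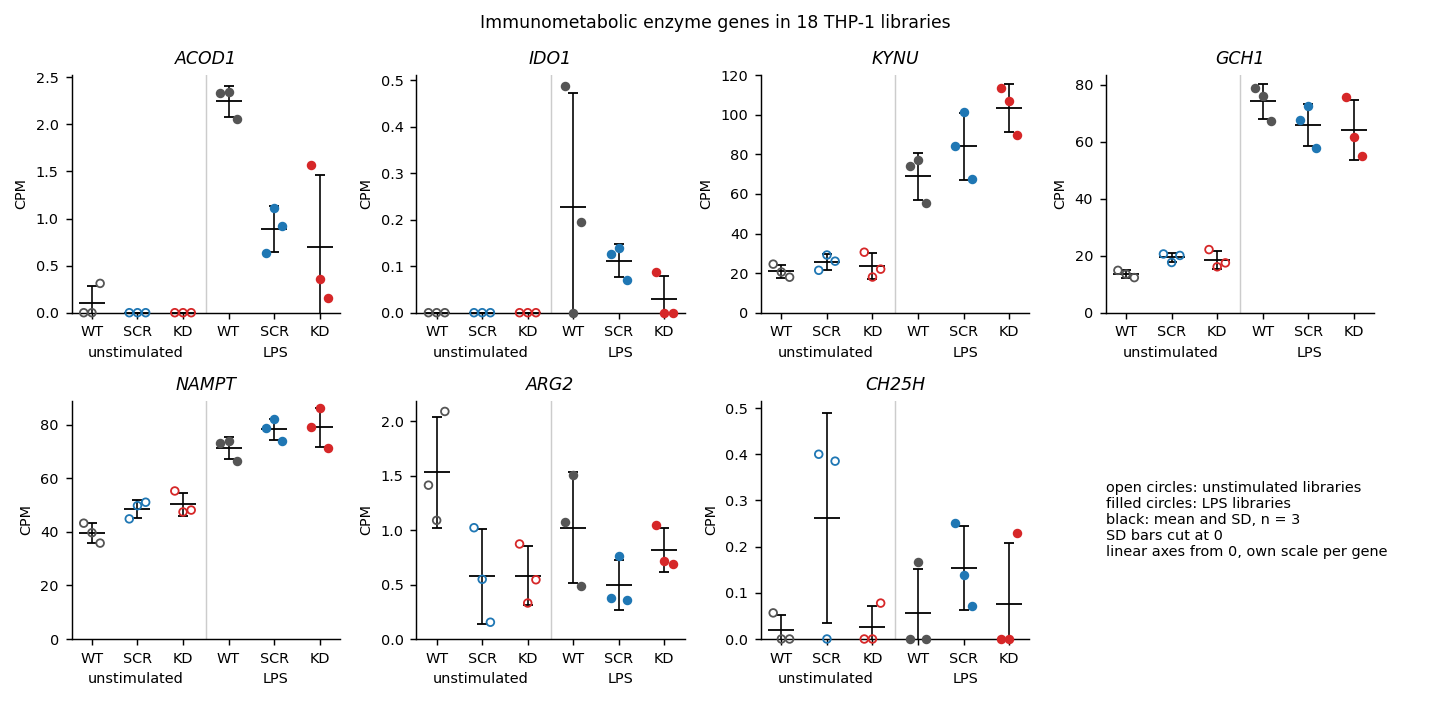
CPM of the 7 enzyme genes (vertical axes, linear, own scale per gene) in the 6 groups (horizontal axes), with 1 circle per library, open for unstimulated and filled for LPS, and the mean and SD of 3 libraries in black, bars cut at 0. KYNU, GCH1 and NAMPT sit higher in every LPS library than in any unstimulated library, whereas ARG2, IDO1 and CH25H do not exceed 2.09 CPM in any library.

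The first comparison asked which of these enzymes respond to LPS in each condition. ACOD1, KYNU, GCH1 and NAMPT were higher with LPS in all 3 conditions, with no overlap between stimulated and unstimulated libraries. For ACOD1 in KD, however, the lowest LPS library held 2 counts against 0, which is under the floor of 3 counts. ARG2 did not pass the test in any condition. By edgeR's quasi-likelihood test with Benjamini-Hochberg adjustment over all genes, 4 of the 5 tested members thus rose in each condition. DESeq2 called 4 in SCR and KD and 3 in WT, where it gave no adjusted p for ACOD1. Of all genes tested, 7.01% rose in WT, 8.64% rose in SCR and 6.41% rose in KD. In all 3 conditions together 2.82% rose. LPS libraries lay above unstimulated ones without overlap for 15% of all genes in WT, 17.5% in SCR and 12.8% in KD. ACOD1 reached the count filter only through its LPS libraries, so its place among the tested members is not independent of its response. In the fits to the compared groups alone ACOD1 gave no result in SCR and KD, so that alternative was not available for those calls. In bulk RNA, a larger share of responding cells and more RNA per cell cannot be told apart.

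GCH1, which commits GTP to tetrahydrobiopterin, had the largest rise in WT among the members with reads in every library of WT, whereas in KD the rise of KYNU was larger. Unstimulated WT libraries held 14.9, 13.5 and 12.3 CPM, and LPS-treated WT libraries held 79.0, 76.1 and 67.4 CPM. In SCR the values were 20.6, 17.6 and 20.1 CPM without LPS and 67.6, 72.4 and 57.8 CPM with it. In KD they were 22.2, 16.1 and 17.5 CPM without and 75.6, 61.6 and 55.0 CPM with LPS. The 2 states lay far apart in every condition, and the 3 WT libraries were the lowest of all when unstimulated. The log2 fold change was 2.45 in WT (SE 0.15, edgeR adjusted p 5.89e-11), 1.76 in SCR (SE 0.14, edgeR adjusted p 1.43e-08) and 1.78 in KD (SE 0.14, edgeR adjusted p 1.46e-08). Group means ran from 13.6 ± 1.27 CPM in unstimulated WT through 18.6 ± 3.17 in KD and 19.5 ± 1.60 in SCR to 64.1 ± 10.5 in KD, 65.9 ± 7.45 in SCR and 74.2 ± 6.05 in WT with LPS (SD, n = 3 each). In that order unstimulated WT and KD were fully separate. Among all genes tested, 24.3% had a gap between these groups, whichever was higher. The unstimulated and LPS groups were separate too, and the other neighbours overlapped. For all unstimulated against all LPS libraries, here and for KYNU and NAMPT below, no share of all genes was counted.

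KYNU, whose reactions yield anthranilate and 3-hydroxyanthranilate, had its highest mean in KD with LPS, where GCH1 had its highest in WT with LPS. Unstimulated levels were 24.5, 20.5 and 17.9 CPM in WT, 21.4, 29.1 and 26.0 CPM in SCR and 30.6, 18.01 and 22.0 CPM in KD. With LPS they were 74.3, 76.96 and 55.3 CPM in WT, 84.1, 101 and 67.3 CPM in SCR and 113, 107 and 90.0 CPM in KD. All 9 stimulated libraries exceeded all 9 unstimulated ones, and with LPS every KD library exceeded every WT library, a lack of overlap in either direction that 35% of all genes shared. Its log2 fold change with LPS was 1.72 in WT (SE 0.19, edgeR adjusted p 1.11e-06), 1.73 in SCR (SE 0.19, edgeR adjusted p 1.34e-06) and 2.13 in KD (SE 0.19, edgeR adjusted p 7.84e-08). Ordered by mean, the unstimulated groups stood at 21.0 ± 3.33 (WT), 23.5 ± 6.41 (KD) and 25.5 ± 3.88 CPM (SCR), and the LPS groups at 68.9 ± 11.8 (WT), 84.2 ± 16.9 (SCR) and 103 ± 12.03 CPM (KD), SD and n = 3 each. Neighbours within a state overlapped.

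NAMPT, which recycles nicotinamide into nicotinamide mononucleotide, moved by less. The unstimulated libraries held 43.2, 39.7 and 35.8 CPM in WT, 44.8, 49.8 and 51.1 CPM in SCR and 55.3, 47.4 and 48.1 CPM in KD. With LPS the levels were 73.3, 74.0 and 66.5 CPM in WT, 78.8, 81.9 and 74.0 CPM in SCR and 79.2, 86.3 and 71.5 CPM in KD. Again no unstimulated library reached any LPS library, and unstimulated WT lay below SCR and KD without overlap, as for 22.6% and 24.3% of all genes in either direction. NAMPT responded by 0.85 in WT (SE 0.11, edgeR adjusted p 6.63e-06), 0.69 in SCR (SE 0.11, edgeR adjusted p 1.16e-04) and 0.65 in KD (SE 0.11, edgeR adjusted p 2.61e-04) as log2 fold change. Group means rose from 39.6 ± 3.72 (WT), 48.6 ± 3.28 (SCR) and 50.3 ± 4.33 CPM (KD) without LPS to 71.3 ± 4.15 (WT), 78.2 ± 4.02 (SCR) and 79.0 ± 7.40 CPM (KD) with LPS (SD, n = 3 each). Unstimulated WT and SCR did not overlap, and the other neighbours within a state did.

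NAMPT has a processed pseudogene, NAMPTP1, on chromosome 10, and reads of such a near-identical copy can be split between the 2 rows. NAMPTP1 took 20.3% to 28.2% of their summed counts, among them 20.3% to 21.5% in WT with LPS and 26.4% to 27.5% in KD with LPS. Its level was 12.7 ± 1.70 CPM in unstimulated WT and 18.9 ± 1.73 CPM with LPS, 14.5 ± 1.55 and 25.8 ± 0.533 CPM in SCR, and 18.3 ± 3.17 and 29.0 ± 2.58 CPM in KD (SD, n = 3 each). The pseudogene row thus also rose in each condition, by 0.57 in WT (edgeR adjusted p 0.0119), 0.83 in SCR (edgeR adjusted p 4.65e-04) and 0.66 in KD (edgeR adjusted p 0.00444) as log2 fold change. The WT call of NAMPTP1 was lost without unstimulated WT replicate 2 (edgeR adjusted p 0.0575) and without LPS WT replicate 5 (edgeR adjusted p 0.0553). With the counts of both rows summed, the NAMPT response was 0.79 (WT), 0.72 (SCR) and 0.65 (KD), and all 3 calls held.

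**Figure D2:**
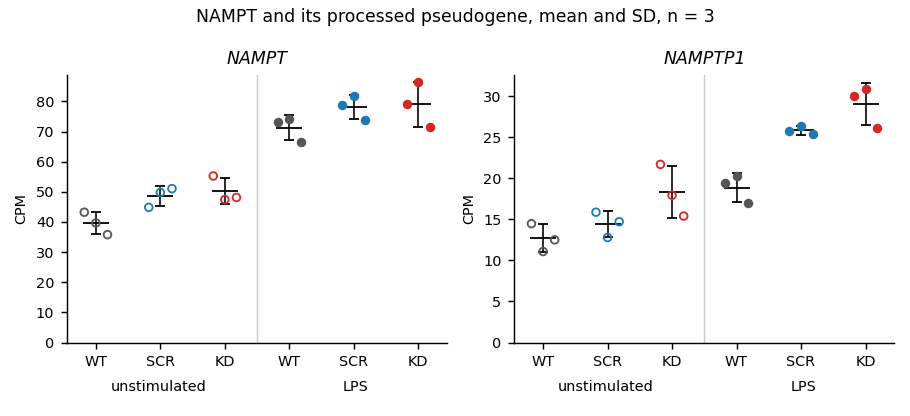
CPM of NAMPT and of its pseudogene NAMPTP1 (vertical axes, linear) in the 6 groups (horizontal axes), 1 circle per library, with mean and SD in black (n = 3). Both rows are higher with LPS, and the pseudogene row lies between 11.1 and 30.9 CPM.

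ACOD1, the itaconate-forming enzyme, was nearly absent before stimulation. Of the 9 unstimulated libraries only WT replicate 3 had reads, 7 counts or 0.311 CPM. With LPS it reached 2.33, 2.34 and 2.06 CPM in WT (24, 28 and 21 counts), 0.630, 1.11 and 0.921 CPM in SCR (5, 16 and 13 counts) and 1.57, 0.360 and 0.152 CPM in KD (18, 6 and 2 counts). All 3 WT libraries lay above all SCR and KD libraries, a separation that 22.8% (SCR) and 35% (KD) of all genes shared in either direction, and neither difference passed the test (edgeR adjusted p 0.487 and 0.192). The KD libraries were spread widely, with replicate 4 holding most of their reads. Pooled over replicates, ACOD1 was 16.4-fold higher with LPS in WT, against the 7 counts of that 1 library, at least 14.4-fold higher in SCR and at least 8.38-fold higher in KD, the last 2 values against a floor of 3 counts over the unstimulated group. Leaving out 1 library gave 10.8-fold to 17.1-fold in WT, or at least 21.5-fold without unstimulated replicate 3, at least 7.44-fold to 15.7-fold in SCR, the lowest without unstimulated replicate 1, and at least 3.57-fold to 11.3-fold in KD, the lowest without LPS replicate 4. The edgeR adjusted p was 0.00766 in WT, 0.00638 in SCR and 0.0205 in KD. The KD call was lost without unstimulated KD replicate 3 (edgeR adjusted p 0.0639) and without LPS KD replicate 4 (edgeR adjusted p 0.0957).

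IDO1, the tryptophan-degrading entry enzyme upstream of KYNU, had 0 counts in all 9 unstimulated libraries. With LPS it had 5, 0 and 2 counts in WT, 1, 2 and 1 in SCR and 1, 0 and 0 in KD, so reads appeared in 6 of 9 libraries. In a fit without the count filter, the edgeR adjusted p of IDO1 was 0.293 in WT, 0.431 in SCR and 0.704 in KD. The unadjusted edgeR p was 0.0396, 0.0938 and 0.331, so no response passed the adjusted threshold at this depth.

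ARG2 went without a call. It held 1.41, 1.09 and 2.09 CPM in unstimulated WT, 1.02, 0.548 and 0.154 CPM in SCR and 0.873, 0.330 and 0.544 CPM in KD. With LPS the values were 1.07, 1.504 and 0.490 CPM in WT, 0.378, 0.765 and 0.354 CPM in SCR and 1.05, 0.720 and 0.686 CPM in KD. The 2 states overlapped in every condition, and no library held more than 47 counts. Its log2 fold change with LPS was -0.59 in WT (95% interval -1.79 to 0.61), -0.24 in SCR (-1.58 to 1.10) and 0.45 in KD (-0.84 to 1.75), and in each condition the interval spans 0.

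CH25H was at the limit of detection. Unstimulated libraries held 1, 0 and 0 counts in WT, 9, 0 and 5 in SCR and 0, 0 and 1 in KD, and LPS libraries held 0, 2 and 0 in WT, 2, 2 and 1 in SCR and 0, 0 and 3 in KD. The highest counts were in 2 unstimulated SCR libraries, and neither state nor condition separated the libraries. Without the filter the edgeR adjusted p of its LPS response was 0.881 in WT, 0.926 in SCR and 0.858 in KD.

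**Figure D3:**
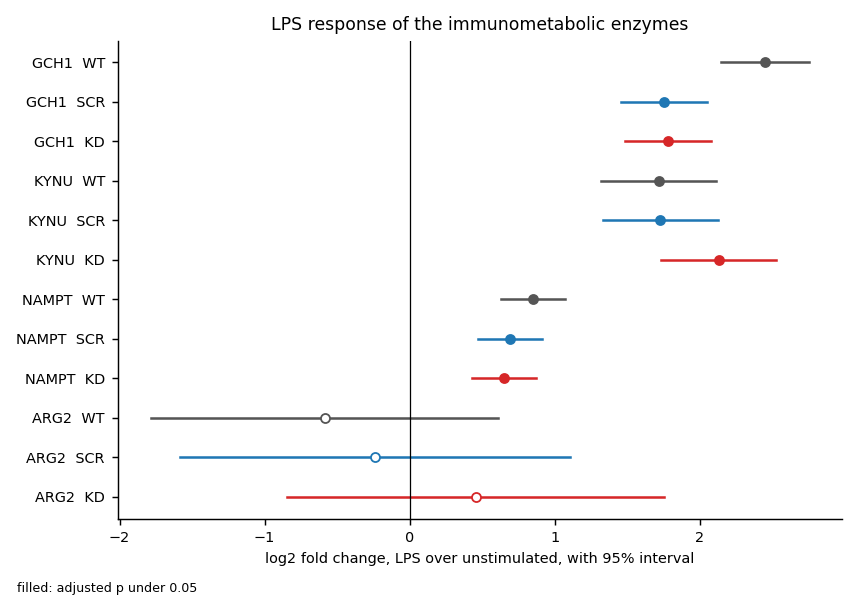
Log2 fold change of LPS over unstimulated cells (horizontal axis) with its 95% interval (lines) for GCH1, KYNU, NAMPT and ARG2 in WT, SCR and KD, filled where the edgeR adjusted p is under 0.05. GCH1 stands at 2.45 in WT against 1.76 in SCR and 1.78 in KD, and the ARG2 intervals span 0.

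The next question was whether the LPS response itself differed between conditions. For GCH1 it was smaller in SCR than in WT by 0.70 and in KD than in WT by 0.67 on the log2 scale (interactions -0.70, SE 0.20, edgeR adjusted p 0.279, and -0.67, SE 0.20, edgeR adjusted p 0.147). Neither passed the adjusted threshold, although the unadjusted edgeR p was 0.0022 and 0.00296. The responses in KD and SCR differed by 0.024 (95% interval -0.39 to 0.44). For KYNU the response in KD exceeded that in SCR by 0.40 (-0.14 to 0.95) and that in WT by 0.41 (-0.13 to 0.96), and for NAMPT the 3 differences lay between -0.20 and -0.038. In all, 0 of 5 members passed by edgeR for SCR against WT, for KD against SCR and for KD against WT. Of all genes 0.234%, 0% and 0.36% passed. GCH1 alone had an unadjusted edgeR p under 0.05 in the first and last of these, as had 9.96% and 15.5% of all genes. DESeq2 called 0, 0 and 1 member, the 1 being GCH1 in KD against WT (DESeq2 adjusted p 0.0412), with no adjusted p for 1, 0 and 2 members. No such difference is given for ACOD1, since its unstimulated SCR and KD libraries were all at 0.

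The knockdown was compared with the scrambled control to ask what TRAFD1 siRNA changed beyond siRNA treatment. Of 5 members 0 passed by edgeR in either state, and 0 had an unadjusted p under 0.05. DESeq2 called 0 of the 3 members to which it gave an adjusted p. Over all genes 0.066% passed in unstimulated cells and 0% with LPS, so that 0 of 5 lies at the background. With LPS the test thus did not call TRAFD1, the target of the siRNA, either. The count of 0 there is therefore no finding about the members. In unstimulated cells the log2 difference was -0.11 for KYNU (95% interval -0.50 to 0.29), -0.066 for GCH1 (-0.37 to 0.23) and 0.052 for NAMPT (-0.17 to 0.27). With LPS it was 0.30 for KYNU (-0.08 to 0.67), -0.042 for GCH1 (-0.32 to 0.24), 0.014 for NAMPT (-0.21 to 0.23) and -0.42 for ACOD1 (-2.18 to 1.34). The KYNU libraries of KD (90.0 to 113 CPM) and SCR (67.3 to 101 CPM) overlapped. For ARG2 the difference was -0.035 (-1.32 to 1.25) without and 0.66 (-0.68 to 2.00) with LPS, so that only large changes could have been seen.

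SCR and WT were compared to see what came with siRNA treatment, from which the transfection reagent cannot be told apart. In unstimulated cells 0 of 5 members passed by edgeR, against 3.23% of all genes, while 4 had an unadjusted p under 0.05, as had 17.2% of all genes, 1 of the 4 being ACOD1 through the 7 counts of a single WT library. GCH1 was 0.52 higher in SCR on the log2 scale (95% interval 0.22 to 0.83, edgeR adjusted p 0.0513), with every SCR library above every WT library. DESeq2, which gave an adjusted p to 3 of the 5, called GCH1 alone (DESeq2 adjusted p 0.0166), and the edgeR adjusted p under RLE scaling was 0.0449. GCH1 did not pass in the fit to SCR and WT alone (edgeR adjusted p 0.0793). It passed in 0 of 6 fits that left out 1 library (edgeR adjusted p 0.0637 to 0.201). NAMPT was 0.29 higher (0.07 to 0.52, edgeR adjusted p 0.141) and ARG2 lower (log2 fold change -1.35, interval -2.56 to -0.13, edgeR adjusted p 0.231), again with no overlap between the groups, as for 22.6% of all genes. With LPS 0 of 5 passed, against 0.114% of all genes, 0 had an unadjusted p under 0.05 by edgeR, and DESeq2 called 0 of the 3 with an adjusted p. ACOD1 was lower in SCR there by 1.30 on the log2 scale (log2 fold change -1.30, interval -2.98 to 0.37, edgeR adjusted p 0.487), with no overlap, as for 22.8% of all genes.

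**Figure D4:**
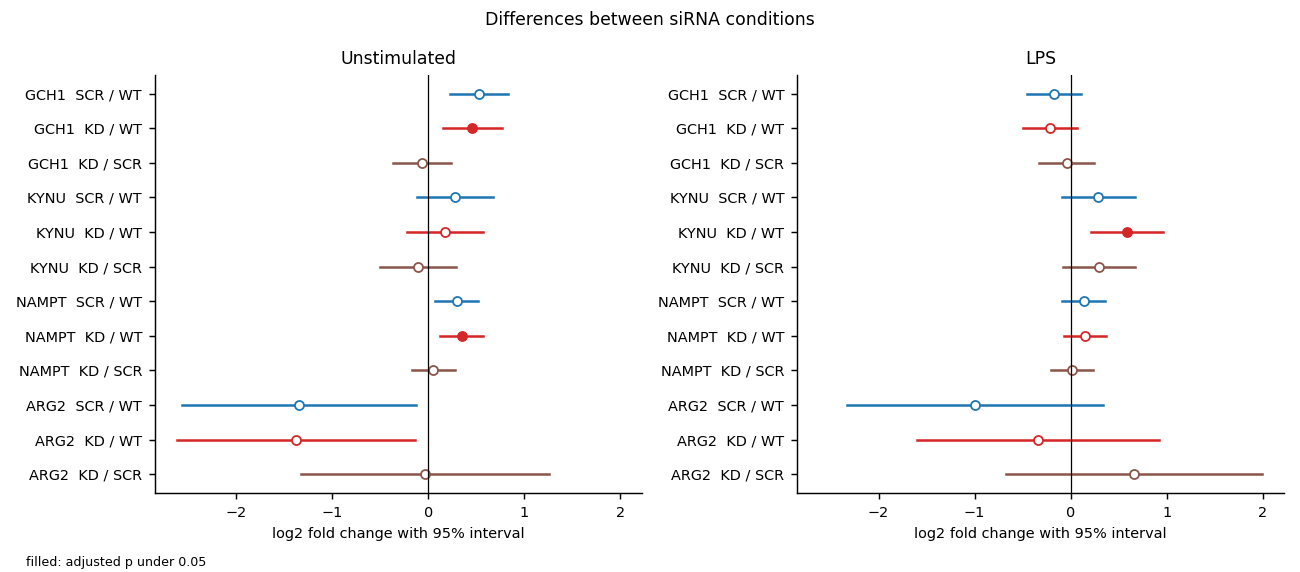
Log2 fold changes (horizontal axes) with 95% intervals (lines) between conditions, unstimulated on the left and with LPS on the right, for GCH1, KYNU, NAMPT and ARG2, filled where the edgeR adjusted p is under 0.05. The filled points are GCH1 (0.46) and NAMPT (0.35) in unstimulated KD against WT and KYNU (0.58) in KD against WT with LPS, and the KD against SCR intervals all span 0.

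KD was also set against WT, a comparison that shares the WT libraries with the one above. It joins the effect of siRNA treatment, and possibly of the reagent, with that of the knockdown. In unstimulated cells GCH1 was 0.46 higher (SE 0.15, edgeR adjusted p 0.0459) and NAMPT 0.35 higher (SE 0.11, edgeR adjusted p 0.0397), 2 of 5 members where 5.85% of all genes were called higher. Both calls were lost in a fit to the libraries of KD and WT alone (edgeR adjusted p 0.170 and 0.153) and without unstimulated WT replicate 2 or 3 or KD replicate 1 or 3, and GCH1 also without WT replicate 1. ARG2 was lower (log2 difference -1.38, SE 0.60, edgeR adjusted p 0.146), its libraries not overlapping those of WT, as for 24.3% of all genes in either direction, and did not pass. With LPS KYNU was 0.58 higher (SE 0.18, edgeR adjusted p 0.0421), 1 of 5 members where 6.29% of all genes were called higher, and this call was lost without WT replicate 4 (edgeR adjusted p 0.0683) or 6 (0.219) and without KD replicate 4 (0.128) or 5 (0.120). ACOD1 in KD with LPS lay below WT without overlap (log2 difference -1.72, SE 0.82, edgeR adjusted p 0.192), a lack of overlap that 35% of all genes shared, and passed only in the fit to those 2 groups alone (edgeR adjusted p 0.0423). The pseudogene row NAMPTP1 was also higher in KD than in WT, by 0.53 unstimulated (edgeR adjusted p 0.0232) and 0.62 with LPS (0.0113). With both rows summed, NAMPT was higher by 0.39 unstimulated (edgeR adjusted p 0.0171) and 0.26 with LPS (0.108).

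Genes of the pathways around each enzyme were counted from lists, beside 7.26% of all genes lowered by LPS in WT, 8.56% lowered in SCR, 5.05% lowered in KD and the higher shares given above. The list around ACOD1 held 20 genes in and near the citric acid cycle, among them cytosolic forms of its enzymes and a citrate carrier. Of these, 0 rose with LPS in any condition by edgeR and 1 fell in WT, 2 in SCR and 1 in KD. At an unadjusted edgeR p under 0.05 it was 1, 1 and 0 that rose, and DESeq2 called 1, 0 and 0 of them. Of all genes, 26.5% (WT), 30.0% (SCR) and 26.1% (KD) had an unadjusted edgeR p under 0.05 in either direction. DESeq2 called 2684, 3215 and 2281 of all genes in either direction. These are the backgrounds for the lists below as well. IDH1, the cytosolic isocitrate dehydrogenase, fell in all 3 conditions, by 0.89 (WT), 0.73 (SCR) and 0.44 (KD) on the log2 scale. It was the only gene of the list called lower in WT and in KD. The list's median log2 fold change was -0.058 in WT, -0.021 in SCR and -0.003 in KD, beside -0.030, -0.027 and -0.0029 for all genes.

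Around IDO1 and KYNU, 10 of 14 tryptophan and kynurenine genes were tested. LPS raised 0 of them in WT, 1 in SCR and 1 in KD by edgeR, and lowered 3 in each condition, with list medians of -0.14, -0.23 and -0.085. In WT 1 gene was higher at an unadjusted p under 0.05, and DESeq2 called 1. Those that fell in all 3 were SLC7A5 and SLC3A2, which together form the large neutral amino acid transporter that carries tryptophan and kynurenine. SLC7A5 went from 320 ± 113 to 153 ± 12.1 CPM in WT, from 344 ± 47.6 to 150 ± 20.1 CPM in SCR and from 405 ± 86.5 to 148 ± 14.04 CPM in KD (SD, n = 3 each). SLC3A2 fell by 0.69 (WT), 0.66 (SCR) and 0.55 (KD) on the log2 scale. The transporter genes thus moved opposite to KYNU.

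Of 11 tetrahydrobiopterin genes around GCH1, 10 were tested. LPS raised 1 (WT), 0 (SCR) and 1 (KD) and lowered 0 by edgeR in any condition, with list medians of 0.15, 0.055 and 0.052. In SCR 1 was higher at an unadjusted p under 0.05 and 0 by DESeq2, and 0 were lower in any condition by either measure. Both were named after their values were seen. The gene in WT was AKR1B1, an aldose reductase, with a log2 fold change of 0.47 (edgeR adjusted p 0.0129) beside 0.26 in SCR (0.166) and 0.097 in KD (0.670), and its call was lost without unstimulated replicate 1 or 3 or LPS replicate 4 or 5 of WT. The gene in KD was SPR, the sepiapterin reductase of the last step of tetrahydrobiopterin synthesis, at 0.73 (edgeR adjusted p 0.0475) beside 0.40 in WT (0.285) and -0.0035 in SCR (0.994). The SPR call was lost under RLE scaling (edgeR adjusted p 0.0562), in the fit to KD alone (0.214) and without any 1 KD library except unstimulated replicate 3, with a value of 0.38 without unstimulated replicate 1. Of 16 NAD genes around NAMPT, all tested, LPS raised 2 (WT), 1 (SCR) and 5 (KD) and lowered 0 by edgeR, with list medians of -0.015, 0.12 and 0.087. Only 1 NAD gene, in KD, was lower at an unadjusted p under 0.05, and DESeq2 called 0 lower. PARP14, an enzyme that consumes NAD, rose in all 3, by 0.32, 0.50 and 0.41 on the log2 scale.

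Of 12 arginine genes around ARG2, 10 were tested. LPS raised 1 (WT), 0 (SCR) and 0 (KD) and lowered 3, 3 and 2 by edgeR, with list medians of -0.056, -0.28 and -0.090. At an unadjusted p under 0.05, 0 were higher in SCR and 1 in KD, and DESeq2 called 0 higher in both. SLC7A1, the cationic amino acid transporter that imports arginine, fell from 127 ± 5.997 to 60.3 ± 1.87 CPM in WT, from 139 ± 5.23 to 74.4 ± 6.73 CPM in SCR and from 133 ± 4.87 to 81.4 ± 5.50 CPM in KD (SD, n = 3 each). PYCR1, which makes proline, fell by 0.48, 0.50 and 0.47 on the log2 scale. Around CH25H, all 13 oxysterol genes were tested, and LPS raised 1 (WT), 3 (SCR) and 2 (KD) and lowered 2, 1 and 0 by edgeR, with list medians of -0.0089, -0.0056 and 0.056. In KD 2 were lower at an unadjusted p under 0.05 and 1 by DESeq2. CYP7B1, which hydroxylates oxysterols including 25-hydroxycholesterol, stood at 1.998 to 2.996 CPM in unstimulated WT and 15.9 to 17.7 CPM with LPS, 2.10 to 4.16 and 10.01 to 13.997 CPM in SCR, and 0.544 to 2.08 and 8.88 to 15.6 CPM in KD. It rose without overlap by 2.70, 2.04 and 2.87 on the log2 scale (edgeR adjusted p 2.01e-06, 1.03e-04 and 4.67e-06), although CH25H itself was barely detected.

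**Figure D5:**
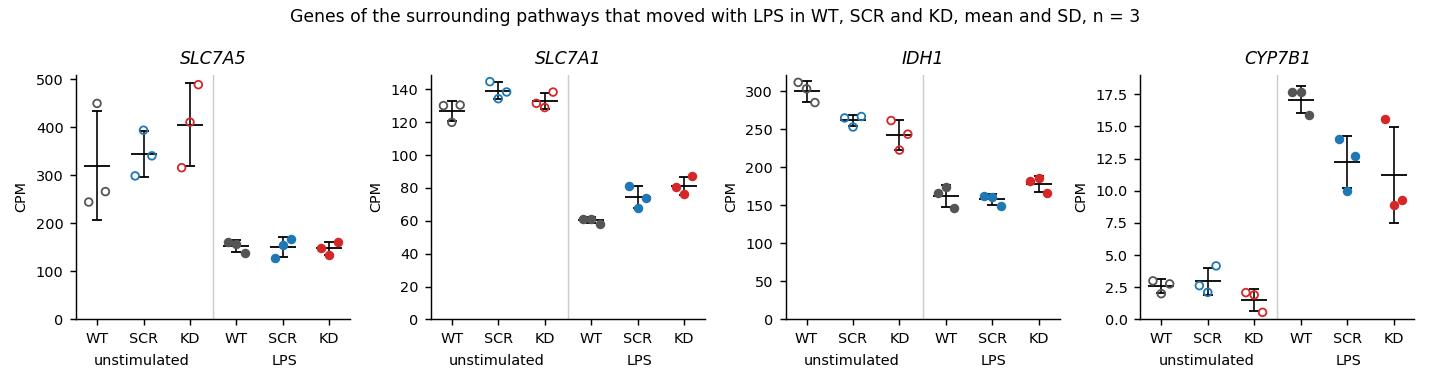
CPM (vertical axes, linear) of the amino acid transporter genes SLC7A5 and SLC7A1, of IDH1 and of CYP7B1 in the 6 groups (horizontal axes), 1 circle per library, with mean and SD in black (n = 3). SLC7A5, SLC7A1 and IDH1 are lower with LPS in all conditions, and CYP7B1 rises from at most 4.16 CPM to at least 8.88 CPM.

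Between conditions, the calls among the 79 tested pathway genes were counted beside those over all genes. In KD against SCR 0 of the 79 passed by edgeR in either state. DESeq2 called 1 without LPS and 0 with it, beside 242 and 110 of all genes. An unadjusted p under 0.05 was reached by 10 of them (12.7%, beside 12.6% of all genes) without LPS and 12 (15.2%, beside 11.8%) with it. In SCR against WT 2 (2.53%, beside 3.23% of all genes) passed without LPS and 0 with it. With LPS 12 had an unadjusted edgeR p under 0.05 (15.2%, beside 13.7% of all genes), and DESeq2 called 2, beside 196 of all genes. In KD against WT 12 (15.2%) passed without LPS, 5 of them higher and 7 lower, beside 11.7% of all genes, and 7 (8.86%) with LPS, 6 higher and 1 lower, beside 10.8%.

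The 2 that passed in SCR against WT were QPRT of the kynurenine list and ODC1 of the arginine list, both named after their values were seen. QPRT, which carries quinolinate of the kynurenine pathway into NAD synthesis, stood at 208, 221 and 224 CPM in unstimulated WT, 149, 134 and 140 CPM in SCR and 128, 133 and 125 CPM in KD. It was lower than in WT by 0.63 on the log2 scale in SCR (log2 difference -0.63, edgeR adjusted p 3.62e-04) and by 0.76 in KD (log2 difference -0.76, edgeR adjusted p 2.08e-05). ODC1, the maker of the polyamine putrescine from ornithine, also passed the test of a difference in LPS response between SCR and WT. It was the only 1 of the 79 to pass there (1.27%, beside 0.234% of all genes). For KD against SCR and KD against WT 0 of the 79 passed that test, beside 0% and 0.36% of all genes. DESeq2 called 0 and 4 of the 79 there, and 9 and 18 had an unadjusted edgeR p under 0.05 (11.4% and 22.8%, beside 7.64% and 15.5% of all genes). ODC1 stood at 26.5, 24.6 and 25.7 CPM in unstimulated WT, 66.7, 62.4 and 62.2 CPM in SCR and 71.0, 61.2 and 63.2 CPM in KD. With LPS it held 41.8, 53.3 and 47.7 CPM in WT, 64.2, 74.2 and 58.7 CPM in SCR and 91.2, 79.6 and 73.6 CPM in KD. Both siRNA conditions lay well above WT before stimulation (log2 1.31 for SCR, edgeR adjusted p 1.02e-06, and 1.35 for KD, edgeR adjusted p 1.25e-06), and with LPS KD stayed above WT by 0.77 (edgeR adjusted p 8.66e-04). With LPS ODC1 did not pass in SCR against WT, and QPRT passed in neither SCR nor KD against WT.

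Across the 18 libraries, likeness was taken as the root mean square difference of log2 CPM after centring each gene, as a description over libraries that share groups. By it the genes nearest to GCH1 were NFKB1 (0.17) and NFKBIA (0.22), those nearest to KYNU were ACSL1 (0.24) and PIM1 (0.25), and those nearest to NAMPT were HSPA8 and SKIL (0.10 each). For ACOD1 they were NAV3 and LINC02605 (0.72 each) and for ARG2 ENSG00000227632 (0.48) and KLHL13 (0.49). Among the members KYNU and GCH1 were closest to each other, at 0.30, and ACOD1 and ARG2 farthest apart, at 1.65. The median distance to all genes was 1.08 for GCH1, 1.04 for KYNU and 0.53 for NAMPT.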

How the data were processed

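RNA of 18 THP-1 libraries was sequenced from the 3-prime end (QuantSeq). Per the labels, reads were aligned with HISAT to GRCh37 and counted with featureCounts, and the authors deposited raw read counts per Ensembl gene, with replicates kept apart. Gene positions and symbols came from GENCODE release 44 on GRCh37, and 55665 rows had a symbol. Counts were tested with edgeR 4.0.16 in R 4.3.3: filterByExpr by group, TMM scaling, 1 mean per group over all 18 libraries, quasi-likelihood F tests of 12 contrasts, and Benjamini-Hochberg adjustment over 16678 genes with a threshold of 0.05. SE are log2 fold changes divided by the square root of F. An exact permutation of 3 against 3 libraries reaches 0.1 at best.

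Members and lists were chosen with earlier results of these data known. All 7 members are named whatever their result, and of each pathway list those past the threshold in the LPS response of all 3 conditions, at most 4, with TRAFD1, TNF and IL1B as checks of the labels and 2 nearest genes per tested member. The alternatives were RLE scaling, no count filter, DESeq2 1.42.0, the compared groups alone, a replicate block, each library left out and, chosen after seeing the data, NAMPT and NAMPTP1 summed. A pathway gene and a marker gene of the lists are not reported here. Same-numbered libraries deviated together at every replicate (r above 0.1) only for SCR and WT with LPS (r 0.163 to 0.261). These took their pairing from that correlation, and there the block left 0 members called.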

Additional observations from a re-analysis of the deposited data

Results flagged for a closer look

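The LPS response of ODC1 was smaller in SCR than in WT, by a test of the difference itself (interaction log2 fold change -0.85, SE 0.16, edgeR adjusted p 0.0288). ODC1 did not pass the same test for KD against WT or for KD against SCR, where 0 genes of the arginine list passed. The response was 0.89 in WT (edgeR adjusted p 1.24e-05), 0.043 in SCR (edgeR adjusted p 0.841) and 0.32 in KD (edgeR adjusted p 0.0733) on the log2 scale, from unstimulated levels of 25.6 ± 0.955 CPM in WT, 63.8 ± 2.52 in SCR and 65.2 ± 5.19 in KD (SD, n = 3 each). The interaction stayed past the threshold under RLE scaling, without the filter, with DESeq2, in the groups alone and with the block (adjusted p 4.68e-04 to 0.0276). Leaving out single libraries ended the call in 9 of 12 cases, with values from -0.95 to -0.76.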

How the results depend on the processing

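The LPS calls of KYNU, GCH1 and NAMPT kept their direction and their side of the threshold in WT, SCR and KD under every alternative run. Leaving out 1 library gave 3 to 4 members called for LPS in KD, 0 to 2 for KD against WT unstimulated and 0 to 1 for KD against WT with LPS. For SCR against WT unstimulated, 1 member in place of 0 (GCH1) was called under RLE scaling, without the count filter, with DESeq2 and with the replicate block. There 0 were called in the compared groups alone and in each of 6 fits that left out 1 library. For KD against WT unstimulated, 0 in place of 2 were called without the filter and in the compared groups alone, and with LPS 2 in place of 1 in those groups alone. For the LPS response of KD against WT, 1 in place of 0 (GCH1) was called with DESeq2 and with the replicate block, and 0 in each of 12 fits that left out 1 library. In both comparisons where the block added a call, it rests on replicate numbers of conditions taken as unpaired (r -0.053 to 0.064 for SCR and WT unstimulated). The cause of these changes in the calls was not tested.

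Values near 0 changed sign. For ARG2 in KD against SCR unstimulated the replicate block gave 0.012, and for KYNU in the LPS response of SCR against WT RLE scaling gave -0.0017, DESeq2 -0.0034 and the block -0.0013. For SPR in LPS in SCR RLE scaling gave 0.0039, DESeq2 0.0065 and no filter 1.34e-05. Leaving out 1 library, the log2 ranges of KD against SCR were, unstimulated, -0.34 to 0.053 (KYNU), -0.22 to 0.027 (GCH1), -0.022 to 0.094 (NAMPT) and -0.45 to 0.77 (ARG2), and with LPS -1.75 to 0.055 (ACOD1), -0.18 to 0.055 (GCH1) and -0.055 to 0.081 (NAMPT). They were -0.71 to 0.57 for ARG2 and -0.055 to 0.12 for ODC1 and -0.098 to 0.076 for SPR in LPS in SCR, -0.067 to 0.33 for KYNU in KD against WT unstimulated and -0.66 to 0.056 for ARG2 with LPS. For the LPS response of SCR against WT they were -0.14 to 0.15 (KYNU) and -0.12 to 1.15 (ARG2), and for KD against SCR -0.12 to 0.17 (GCH1), -0.11 to 0.036 (NAMPT) and -0.11 to 1.17 (ARG2).

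No paired analysis was possible for the LPS responses within a condition because their replicate numbers are not shared. Outside SCR and WT with LPS, r of same-numbered libraries ran from -0.087 to 0.304, the highest for replicate 1 of KD and WT unstimulated. None of these pairs of conditions had an r above 0.1 at every replicate, and they were taken as unpaired. DESeq2 gave no adjusted p for some contrasts of ARG2 and ACOD1. Low counts limit ACOD1, ARG2, IDO1 and CH25H.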
